A study of Mus musculus with 15 samples.

Results

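The genes described here are 46 mouse genes of the WNT pathway, taken as every row of a fixed list of symbols in the deposited gene count tables, which hold 23412 genes each. They comprise 19 WNT ligands, 12 receptors (10 Frizzled genes with Lrp5 and Lrp6), the ligand-modifying enzyme Porcn, 7 cytoplasmic and nuclear effectors and 7 feedback genes that the pathway itself switches on. RNA-seq was performed on polyA RNA from v6.5 mouse embryonic stem cells (mESCs), a male line grown on gelatin, to ask how loss of STAG1, STAG2 or both, the alternative STAG subunits of the cohesin ring, changes gene expression. All cells, controls included, were transfected with 50 nM RNA and harvested after 48 h: wild-type (WT), Stag1-/- and Stag2-/- cells with the siGLO transfection control, and wild-type and Stag2-/- cells with siStag1, an siRNA against Stag1. Each of the 5 conditions had 3 libraries. Each knockout genotype was represented by a single CRISPR clone, and the 3 libraries are replicates of that clone. P-values therefore measure the spread between these libraries, and a property of a clone and the loss of the gene cannot be told apart.

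Libraries held 14982560 to 19070126 counts on genes (median 17700059), and 3 counts, used as the smallest visible level, corresponded to between 0.157 and 0.2 CPM (counts scaled to a common library total). Stag2 had 2329, 2334 and 2329 normalized counts in WT siGLO and 663, 739 and 675 in Stag2-/- siGLO libraries, a fall of the log2 level by 1.75 (SE 0.12, edgeR adjusted p = 4.34e-07). siStag1 lowered Stag1 by 2.28 in wild-type and by 1.53 in Stag2-/- cells on the log2 scale. The Stag1 level of the libraries labelled Stag1-/- was not called different (1826, 2368 and 1875 against 2288, 2137 and 2012; log2 fold change -0.09, SE 0.13); this clone carries an in-frame deletion that leaves the transcript in place, so the count does not check that label. The summed level of 7 mESC marker genes was 62026 to 67837 normalized counts in WT siGLO, 52662 to 53813 in WT siStag1, 49842 to 56484 in Stag1-/- and 47899 to 52223 in Stag2-/- siGLO libraries, and 28176 to 31169 in Stag2-/- siStag1 libraries, and none was at 0. Of the 7, 2 were called lower in Stag1-/-, 4 in Stag2-/- siGLO, 1 in WT siStag1 and all 7 in Stag2-/- siStag1 cells, where Tfcp2l1 was 11.0-fold, Esrrb 6.23-fold and Klf4 4.44-fold lower, against 1.24-fold for Pou5f1 and 1.40-fold for Sox2. Their part in the results was not tested. In bulk RNA, fewer cells of a type and less RNA per cell cannot be told apart.

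WNT proteins are secreted lipid-modified ligands that bind a Frizzled receptor together with an LRP5 or LRP6 co-receptor. In the absence of ligand, a complex built on AXIN and APC marks β-catenin (Ctnnb1) for destruction. When ligand is bound the complex is held back, β-catenin enters the nucleus, and with TCF/LEF factors it activates targets, among them inhibitors of the pathway. In mESCs β-catenin relieves repression by TCF7L1 of pluripotency genes, and in the embryo WNT3 and its targets act in formation of the primitive streak.

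In WT siGLO cells, levels were compared between genes as CPM per kilobase of exon. Most receptors and effectors were more abundant than the ligands, although values of Fzd1, Fzd3, Fzd4, Fzd6, Fzd8, Lef1 and Tcf7l2 reached into the range of the ligands. Ctnnb1 stood at 178 ± 8.93 (SD, n = 3) and Fzd7 at 32.9 ± 3.88, followed by Tcf7 at 28.0 ± 3.33 and Fzd5 at 25.9 ± 0.905. Among the ligands, Wnt7b was the highest at 1.68 ± 0.317, followed by Wnt9a at 1.09 ± 0.293 and Wnt11 at 0.854 ± 0.168; the ranges of these last 2 overlapped. Porcn, the acyltransferase that attaches the lipid to all WNT ligands, stood at 10.1 ± 1.08. Of the 46 genes, 39 passed the filter on low counts. The other 7 were ligand genes (Wnt1, Wnt2, Wnt8b, Wnt9b, Wnt10a, Wnt10b and Wnt16) with at most 15 counts in any library, and they were not tested.

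**Figure D1:**
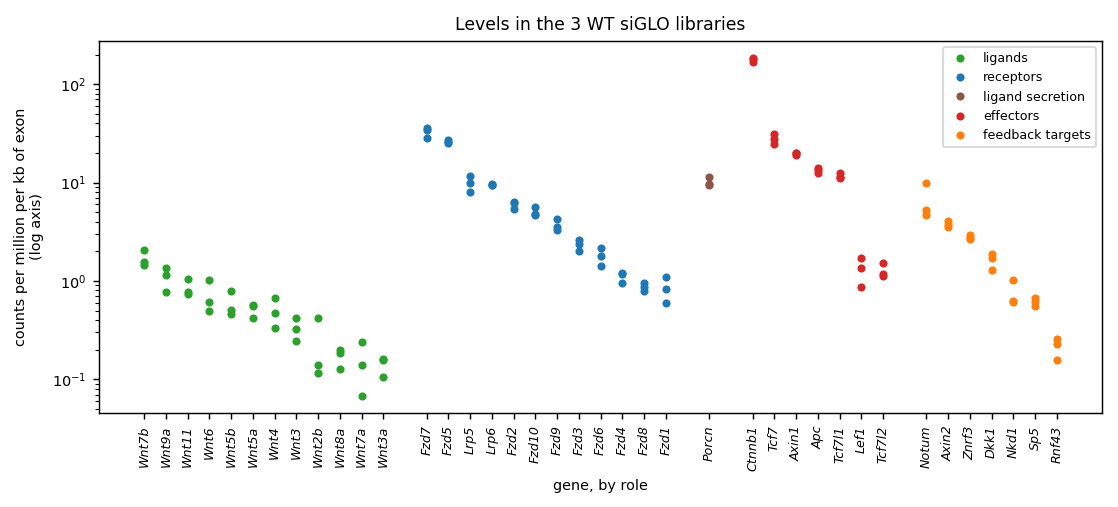
Levels of the 39 tested genes in the 3 WT siGLO libraries, in CPM per kilobase of exon on a log axis; each point is a library, and genes are ordered by mean within their role. Every ligand lies at or below 2.04, whereas Ctnnb1 averages 178 and Fzd7 32.9.

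The first question was how many of these genes responded to each STAG loss. A gene was called when its adjusted p from edgeR, corrected over all 14508 genes tested, was under 0.1. In Stag1-/- cells 14 of the 39 genes were called (9 higher, 5 lower), beside 20.0% of all genes tested (10.1% higher, 9.93% lower). In Stag2-/- cells 20 were called (15 higher, 5 lower), beside 28.3% of all genes (13.9% higher, 14.4% lower). In Stag2-/- siStag1 cells, 23 were called against WT siGLO (17 higher, 6 lower), beside 43.9% (22.6% higher, 21.3% lower). The median log2 fold change of the 39 genes was 0.19, 0.25 and 0.19 in these comparisons, while that of all genes was -0.01, 0.01 and 0.01. These 3 comparisons share their WT siGLO libraries.

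The knockouts were then compared directly. Between Stag1-/- and Stag2-/- cells 16 genes were called, 6 higher and 10 lower in Stag1-/- cells, beside 25.7% of all genes (12.7% and 12.9%). The comparisons of the single knockouts with WT siGLO share their controls, so genes called in both are named as a description. Axin1, Fzd5, Tcf7l1, Tcf7l2, Wnt11 and Dkk1 moved the same way in both, whereas Wnt7b moved in opposite directions. Wnt3a did so as well, but at the low counts given below, and its Stag2-/- call was lost in most runs that left out a library. Lrp5, Porcn and Wnt7a were called in Stag1-/- and not in Stag2-/- cells and also differed between the knockouts. Axin2, Fzd10, Fzd2, Fzd8, Lef1, Sp5, Wnt5b and Wnt8a were called in Stag2-/- and not in Stag1-/- cells and also differed between the knockouts. Fzd9, Lrp6, Notum, Wnt2b, Wnt6 and Znrf3 were called in none of the 7 comparisons.

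Adding the replicate numbers of the labels as a block raised some counts. The labels do not state that libraries were paired, and values are without the block unless it is named. The Stag1-/- count rose to 22 (15 higher, 7 lower), beside 30.6% of all genes in the same fit. The genes gained were Fzd2, Fzd7, Fzd10, Lef1, Nkd1, Tcf7, Wnt3 and Wnt9a, of which all but Wnt9a were called without the block in Stag2-/- and not in Stag1-/- cells. In Stag2-/- cells the block added Wnt4 and Wnt5a (edgeR adjusted p = 0.0711 and 0.0777), which were called without it in Stag1-/- cells, and Fzd6 (edgeR adjusted p = 0.0995). Membership of the classes of genes called in a single knockout therefore depended on the block. DESeq2 without a block added Fzd2, Fzd7, Wnt3 and Wnt9a in Stag1-/- cells and Wnt4 in Stag2-/- cells. Without WT siGLO replicate 2 and without the block, the Stag1-/- count was 9 and the Stag2-/- count 13, while the share of all genes called fell to 13.0% and 17.1%. Without Stag1-/- siGLO replicate 2, 10 genes were called between the knockouts in place of 16, and the share of all genes went from 25.7% to 17.2%.

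**Figure D2:**
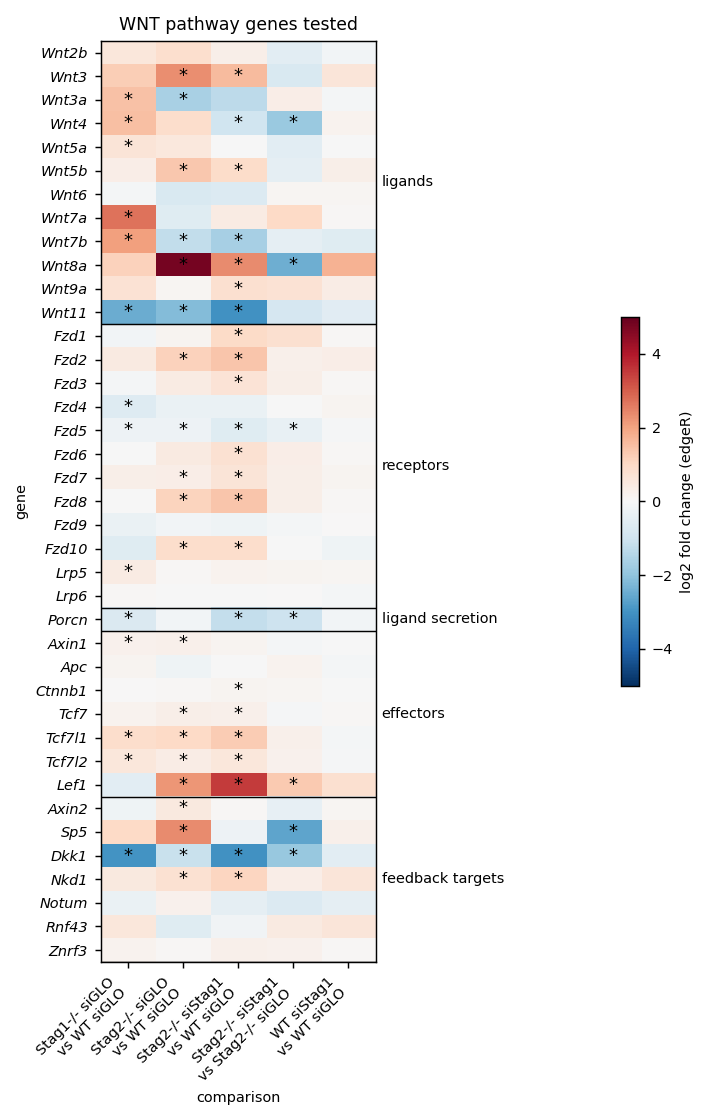
Log2 fold changes (colour) of the 39 tested genes in 5 comparisons; an asterisk marks an edgeR adjusted p under 0.1, and horizontal lines part the roles. The Stag2-/- siStag1 column against WT siGLO holds 23 asterisks and the wild-type siStag1 column holds none.

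Among the effectors, Lef1, the TCF/LEF factor that acts mainly as an activator with β-catenin, changed most in the Stag2-/- conditions. It had 264, 133 and 208 normalized counts in WT siGLO and 1144, 790 and 835 in Stag2-/- siGLO libraries. With siStag1 in Stag2-/- cells it reached 3200, 1584 and 2010. In Stag1-/- cells it had 173, 96.4 and 148. The Stag2-/- groups lay wholly above the wild type and above one another in the order of STAG depletion, and the Stag1-/- libraries overlapped with the wild type. The rise was 2.19 on the log2 scale in Stag2-/- cells (SE 0.27, edgeR adjusted p = 5.11e-05) and 3.49 in Stag2-/- siStag1 cells (SE 0.28, edgeR adjusted p = 1.85e-07), and the step from one to the other was 1.30 (SE 0.25, edgeR adjusted p = 0.00722). Stag1-/- cells differed from the wild type by -0.54 (SE 0.29, edgeR adjusted p = 0.245), which became -0.53 with the replicate block (SE 0.15, edgeR adjusted p = 0.0169), and lay 2.73 below Stag2-/- cells (log2 difference -2.73, SE 0.28, edgeR adjusted p = 1.18e-05). Part of the neural marker genes moved with Lef1. Of 4 listed and 3 tested, 2 (Pax6 and Nes) rose in both Stag2-/- conditions. The third tested, Sox1, fell in Stag1-/- cells and was not called in the Stag2-/- conditions, with log2 fold changes of 0.58 with siGLO and -0.79 with siStag1 against WT siGLO. For the 4 markers, the sum was 1098 to 1364 normalized counts in WT siGLO, 997 to 1242 in Stag1-/-, 1547 to 3166 in Stag2-/- siGLO and 2203 to 4110 in Stag2-/- siStag1 libraries, with none of the 4 at 0 throughout a condition. Their part in the Lef1 result was not tested.

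Tcf7l1, the TCF factor that represses pluripotency genes in mESCs, rose in each knockout condition. Its normalized counts were 783, 759 and 847 in WT siGLO, 1630, 1323 and 1496 in Stag1-/-, 1498, 1697 and 1630 in Stag2-/- siGLO and 1772, 2058 and 1971 in Stag2-/- siStag1 libraries. The wild-type values did not overlap with any of these groups. The log2 rise was 0.90 in Stag1-/- (SE 0.10, edgeR adjusted p = 2.12e-05), 1.01 in Stag2-/- (SE 0.10, edgeR adjusted p = 7.16e-06) and 1.28 in Stag2-/- siStag1 cells (SE 0.10, edgeR adjusted p = 1.57e-07). siStag1 moved it further in Stag2-/- cells by 0.27, which was called with the replicate block (edgeR adjusted p = 0.0721) and not without it (edgeR adjusted p = 0.166).

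The remaining effectors moved less than Tcf7l1 in the knockout conditions. Tcf7l2 rose in Stag1-/- (0.55, SE 0.15) and Stag2-/- siStag1 cells (0.57, SE 0.15) on the log2 scale, and by 0.36 in Stag2-/- cells (edgeR adjusted p = 0.0964), a call lost without any 1 of the libraries compared except WT siGLO replicate 2 (adjusted p up to 0.3). Tcf7, usually an activator, rose by 0.31 in Stag2-/- and 0.25 in Stag2-/- siStag1 cells; both calls were lost without WT siGLO replicate 1 (edgeR adjusted p = 0.138 and 0.249, the latter with a log2 fold change of 0.16), WT siGLO replicate 2, or 1 further library (Stag2-/- siGLO replicate 3 and Stag2-/- siStag1 replicate 1). Axin1, the scaffold of the destruction complex, rose by 0.22 in Stag1-/- and 0.25 in Stag2-/- cells, calls that were lost without Stag1-/- siGLO replicate 1 (edgeR adjusted p = 0.262) or any WT siGLO library, and without WT siGLO replicate 2 (edgeR adjusted p = 0.124). Ctnnb1 ranged from 15124 to 18288 normalized counts over all 15 libraries. Its only call, a rise of 0.15 in Stag2-/- siStag1 cells, was lost without any 1 of the libraries compared except WT siGLO replicate 2 (edgeR adjusted p up to 0.273). Apc was 0.33 higher in Stag1-/- than in Stag2-/- cells (edgeR adjusted p = 0.0517; up to 0.237 without replicate 1 or 2 of Stag1-/- or replicate 1 or 3 of Stag2-/- siGLO) and was called against the wild type in no comparison.

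**Figure D3:**
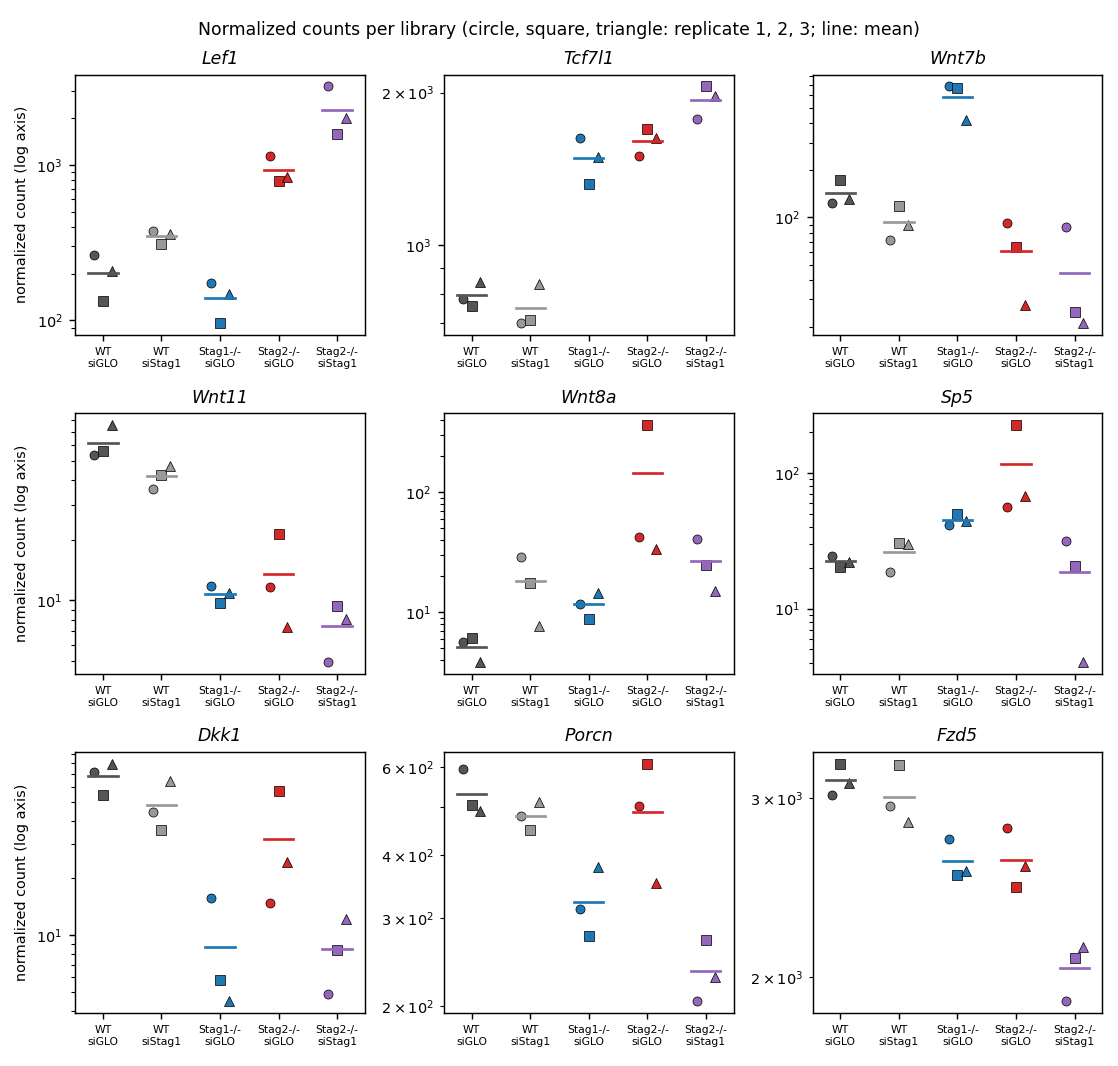
Normalized counts of 9 genes in all 15 libraries, each panel on its own log axis; circles, squares and triangles are replicates 1, 2 and 3, and lines are means. Lef1 climbs from 133 to 264 in WT siGLO to 1584 to 3200 in Stag2-/- siStag1, and Stag2-/- siGLO replicate 2 (red square) stands above its group for Wnt8a (361) and Sp5 (226).

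Ligand genes responded in opposite directions. In Stag1-/- cells 5 of 12 tested ligands rose and 1 fell. In Stag2-/- cells 3 rose and 3 fell, and in Stag2-/- siStag1 cells 4 rose and 3 fell, beside 20.0%, 28.3% and 43.9% of all genes called in these comparisons. Wnt7a and Wnt7b, closely related ligands with roles in neural and epithelial tissues, were highest in the Stag1-/- line. Wnt7b had 123, 174 and 132 normalized counts in WT siGLO, 684, 665 and 418 in Stag1-/-, 92.0, 64.7 and 27.5 in Stag2-/- siGLO and 86.7, 25.0 and 21.2 in Stag2-/- siStag1 libraries. Thus WT siGLO lay between the lines, with no overlap. Between WT siStag1 and WT siGLO cells Wnt7b was not called different. Wnt7b rose by 2.04 on the log2 scale in Stag1-/- cells (SE 0.39, edgeR adjusted p = 0.00227), and it fell by 1.22 in Stag2-/- (SE 0.43, edgeR adjusted p = 0.055) and by 1.68 in Stag2-/- siStag1 cells (SE 0.44, edgeR adjusted p = 0.00712). The knockouts differed by 3.26 (SE 0.43, edgeR adjusted p = 9.25e-05). The call in Stag2-/- cells was lost without Stag2-/- siGLO replicate 2 or 3 or WT siGLO replicate 2 (adjusted p up to 0.176), and without Stag2-/- siStag1 replicate 1 the fall in that condition was 2.62 (log2 fold change -2.62). Wnt7a had 3.74, 13.2 and 7.74 normalized counts in WT siGLO and 41.3, 70.1 and 49.7 in Stag1-/- libraries, but 5.29, 7.54 and 3.17 in Stag2-/- siGLO. It rose by 2.70 in Stag1-/- cells (SE 0.56, edgeR adjusted p = 0.00389) and stood 3.30 above its Stag2-/- level (SE 0.60, edgeR adjusted p = 0.0013). Of 4 trophoblast markers, 3 tested, 2 also rose in Stag1-/- cells: Hand1, from 18.7, 27.5 and 11.6 to 100.4, 84.7 and 75.9 normalized counts, and Cdx2, from 12.2, 7.12 and 13.6 to 30.5, 22.4 and 55.1. The list summed to 779.8 to 902.1 in WT siGLO, 716 to 895 in Stag1-/-, 474 to 557 in Stag2-/- siGLO and 209.9 to 348 in Stag2-/- siStag1 libraries, mostly Tfap2c, which fell in both Stag2-/- conditions. None of the 4 was at 0 throughout a condition, although Elf5 had at most 4.87 in any library. Their part in the Wnt7a and Wnt7b results was not tested.

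Wnt4, a ligand with several roles in organ formation, had 24.3, 48.8 and 34.8 normalized counts in WT siGLO and 131, 113 and 65.1 in Stag1-/- libraries, a rise of 1.52 (SE 0.37, edgeR adjusted p = 0.0112). Its Stag2-/- siGLO counts of 52.9, 98.1 and 47.5 became 24.6, 8.32 and 21.2 with siStag1, a fall of the log2 level by 1.86 (SE 0.40, edgeR adjusted p = 0.016; 0.143 when only the libraries compared were fitted). Against WT siGLO the fall of 0.98 was called with overlapping libraries and was lost without WT siGLO replicate 2 (edgeR adjusted p = 0.275), WT siGLO replicate 3 or Stag2-/- siStag1 replicate 2 (log2 fold change -0.64) or 3. Wnt3a, a classical activator of β-catenin signaling, was low everywhere: 7.48, 5.08 and 7.74 normalized counts in WT siGLO, 15.7, 21.4 and 19 in Stag1-/- and 2.12, 0 and 4.22 in Stag2-/- siGLO libraries. Of these libraries only those of Stag1-/- exceeded 10, the minimum count of the filter. It differed between the knockouts by 3.07 (SE 0.56, edgeR adjusted p = 0.00126). Its calls against the wild type were lost without replicate 2 of WT siGLO or of Stag1-/- siGLO in Stag1-/- cells (log2 fold change 1.45, edgeR adjusted p = 0.043, up to 0.159). In Stag2-/- cells (log2 fold change -1.62, edgeR adjusted p = 0.0791) the call was lost with DESeq2 and without any 1 of the libraries compared except Stag2-/- siGLO replicate 3, whose omission gave -2.54; without replicate 2 it was -1.07 (edgeR adjusted p = 0.229). Wnt5a, which signals largely without β-catenin, rose by 0.66 in Stag1-/- cells from 76.7, 56.9 and 75.5 to 128, 117 and 85.9 normalized counts, with an edgeR adjusted p of 0.0641 that became up to 0.227 without WT siGLO replicate 2 or Stag1-/- siGLO replicate 1 or 2.

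Wnt3, Wnt8a and Wnt5b rose in Stag2-/- cells. Wnt3, the ligand required for the primitive streak, had 13.1, 22.4 and 17.4 normalized counts in WT siGLO, 38.1, 180 and 47.5 in Stag2-/- siGLO and 52.2, 59.3 and 45.5 in Stag2-/- siStag1 libraries, and the wild type lay below both. It rose by 2.32 (SE 0.49, edgeR adjusted p = 0.0038) and by 1.57 (SE 0.50, edgeR adjusted p = 0.0224). In Stag1-/- cells its counts of 42.3, 47.7 and 33.4 also lay above the wild type, by 1.22 (SE 0.51), which was not called by edgeR without the replicate block (adjusted p = 0.125) but was with it (adjusted p = 0.0326) and by DESeq2 without it (adjusted p = 0.0829). Wnt8a, another β-catenin activating ligand of the streak, had 5.61, 6.10 and 3.87 normalized counts in WT siGLO and 42.3, 361 and 33.8 in Stag2-/- siGLO libraries, a rise of 4.78 (SE 0.86, edgeR adjusted p = 0.00123). With siStag1 its Stag2-/- counts were 40.4, 25.0 and 15.2, still above the wild type by 2.35 (SE 0.93, edgeR adjusted p = 0.0593; up to 0.172 without Stag2-/- siStag1 replicate 1 or any WT siGLO library). The fall between these conditions (log2 difference -2.43, edgeR adjusted p = 0.0671) was lost without Stag2-/- siStag1 replicate 2 or 3, and without Stag2-/- siGLO replicate 2 the difference was -0.50 (edgeR adjusted p = 0.658). Wnt5b had 23.4, 36.6 and 21.3 normalized counts in WT siGLO, 37.0, 97.0 and 73.9 in Stag2-/- siGLO and 49.3, 43.7 and 60.7 in Stag2-/- siStag1 libraries. It rose by 1.35 (SE 0.33, edgeR adjusted p = 0.00887) and 0.92 (SE 0.33, edgeR adjusted p = 0.0403; up to 0.136 without WT siGLO replicate 1 or 3 or Stag2-/- siStag1 replicate 3). It overlaps Fbxl14 on the opposite strand, whose normalized count reached 1506, and since the strand setting of the counting is not given in the sources used here, reads of these genes may be mixed.

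Stag2-/- siGLO replicate 2 carried the highest level of several of these genes at once. T (Brachyury), the defining transcription factor of the primitive streak, had 9.35, 11.2 and 6.78 normalized counts in WT siGLO and 80.4, 268 and 35.9 in Stag2-/- siGLO libraries. The 6 streak and mesoderm markers together summed to 246 to 366 in WT siGLO, 225 to 512 in Stag2-/- siGLO and 157 to 172 in Stag2-/- siStag1 libraries, and of 5 tested, 1 was called higher (T) and 1 lower (Eomes) in Stag2-/- cells. Their part in the Wnt3, Wnt8a and Sp5 results was not tested. Without this library 14 genes were called in Stag2-/- cells (12 higher, 2 lower) in place of 20, while the share of all genes called went from 28.3% to 20.1%, and the rise was 1.28 for Wnt3 (edgeR adjusted p = 0.0233) and 2.85 for Wnt8a (edgeR adjusted p = 0.0034).

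Wnt11, a ligand of cell movement and heart development that acts mostly outside the β-catenin branch, fell in each knockout condition. Its counts of 53.3, 55.9 and 75.5 in WT siGLO became 11.8, 9.73 and 10.8 in Stag1-/-, 11.6, 21.6 and 7.39 in Stag2-/- siGLO and 4.93, 9.36 and 8.09 in Stag2-/- siStag1 libraries. The wild-type libraries, siGLO or siStag1 (36.1, 42.3 and 47.4), lay above all others. Wnt11 fell by 2.50 in Stag1-/- (SE 0.35, edgeR adjusted p = 0.000159), by 2.18 in Stag2-/- (SE 0.34, edgeR adjusted p = 0.000377) and by 3.03 in Stag2-/- siStag1 cells (SE 0.37, edgeR adjusted p = 1.25e-05). Endoderm markers moved the same way: all 5 (Gata4, Gata6, Sox17, Foxa2 and Dab2) fell in each of these conditions, from a sum of 3369 to 3694 normalized counts in WT siGLO to 294 to 468 in Stag1-/-, 625 to 989 in Stag2-/- siGLO and 702 to 915 in Stag2-/- siStag1 libraries, with none at 0 throughout a condition, and none was called in WT siStag1 (3261 to 3605). Their part in the Wnt11 result was not tested. Wnt9a rose by 0.81 in Stag2-/- siStag1 cells (edgeR adjusted p = 0.0412; up to 0.153 without WT siGLO replicate 1 or Stag2-/- siStag1 replicate 2 or 3), from 44.9, 78.3 and 66.8 to 74.9, 127 and 130 normalized counts, and the ranges overlapped. It was also called in Stag1-/- cells with the replicate block (edgeR adjusted p = 0.0104) and by DESeq2 without it (adjusted p = 0.0839).

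Receptor genes were called in all 3 knockout conditions. In Stag1-/- cells 3 of 12 tested receptors were called (1 higher, 2 lower). In Stag2-/- cells 5 were called (4 higher, 1 lower), and in Stag2-/- siStag1 cells 8 (7 higher, 1 lower), while the share of all genes called rose in the same order (20.0%, 28.3% and 43.9%; higher, 10.1%, 13.9% and 22.6%). Fzd2 had 401, 397 and 346 normalized counts in WT siGLO, 606, 1036 and 920 in Stag2-/- siGLO and 748, 1084 and 1190 in Stag2-/- siStag1 libraries, without overlap with the wild type. Its rise was 1.16 (SE 0.18, edgeR adjusted p = 0.000343) and 1.40 (SE 0.18, edgeR adjusted p = 2.16e-05). Fzd8 went from 81.3, 89.5 and 98.7 to 138, 236 and 214 and to 196, 238 and 279 normalized counts in the same groups, a rise of 1.12 (SE 0.22, edgeR adjusted p = 0.00228) and 1.40 (SE 0.22, edgeR adjusted p = 0.000136). In Stag1-/- cells Fzd8 differed from the wild type by -0.02 (SE 0.23) and lay below Stag2-/- cells (log2 difference -1.14, edgeR adjusted p = 0.00212). Fzd10 rose by 0.88 in Stag2-/- (edgeR adjusted p = 0.0197; without Stag2-/- siGLO replicate 2, 0.46 and 0.142) and by 0.87 in Stag2-/- siStag1 cells (edgeR adjusted p = 0.0118), and stood lower in Stag1-/- than in Stag2-/- cells (log2 difference -1.47, SE 0.25, edgeR adjusted p = 0.000855).

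Fzd7 and Fzd5, the most abundant Frizzled genes of these cells, moved apart. Fzd5 had 3023, 3238 and 3103 normalized counts in WT siGLO, 2733, 2521 and 2546 in Stag1-/-, 2804, 2456 and 2570 in Stag2-/- siGLO and 1897, 2089 and 2140 in Stag2-/- siStag1 libraries. It fell by 0.26 in each single knockout (SE 0.08; edgeR adjusted p = 0.0365 and 0.0313) and by 0.61 in Stag2-/- siStag1 cells (SE 0.08, edgeR adjusted p = 2.53e-05), and the step from Stag2-/- siGLO to siStag1 was -0.35 (SE 0.08, edgeR adjusted p = 0.0204; 0.122 when only the libraries compared were fitted). The single-knockout calls were lost without WT siGLO replicate 2 or replicate 2 of the knockout (edgeR adjusted p up to 0.139 in Stag1-/- and 0.125 in Stag2-/-). Fzd7 had 2250, 2830 and 2711 normalized counts in WT siGLO and 3424, 4305 and 4362 in Stag2-/- siStag1 libraries, a rise of 0.63 (SE 0.11, edgeR adjusted p = 0.000442); in Stag2-/- siGLO libraries (3084, 3353 and 3443) it rose by 0.34 (edgeR adjusted p = 0.0433; up to 0.156 without WT siGLO replicate 1 or Stag2-/- siGLO replicate 2 or 3). Fzd1, Fzd3 and Fzd6 were called in Stag2-/- siStag1 cells and, without the block, in neither single knockout. Fzd1 had 43.9, 61.0 and 79.4 normalized counts in WT siGLO, 51.8, 65.7 and 87.6 in Stag2-/- siGLO and 103, 130 and 125 in Stag2-/- siStag1 libraries, and rose by 0.96 (SE 0.26, edgeR adjusted p = 0.00903). Its step from Stag2-/- siGLO to siStag1 was 0.80 (SE 0.26; edgeR adjusted p = 0.105, and 0.0223 with the replicate block; DESeq2 adjusted p = 0.0542 without it). Fzd6 rose by 0.76 (SE 0.20) and Fzd3 by 0.69 (SE 0.25) in Stag2-/- siStag1 cells, the latter with overlapping libraries and lost without Stag2-/- siStag1 replicate 2 or 3 or WT siGLO replicate 1 (edgeR adjusted p up to 0.193).

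Besides Fzd5, the receptors called in Stag1-/- cells were the co-receptor Lrp5 and Fzd4. Lrp5 had 1373, 1692 and 1955 normalized counts in WT siGLO and 2223, 2420 and 2077 in Stag1-/- libraries, a rise of 0.42 (SE 0.11, edgeR adjusted p = 0.018). It was 0.37 higher than in Stag2-/- cells (SE 0.11, edgeR adjusted p = 0.0287; 0.114 without Stag1-/- siGLO replicate 2). Lrp6 ranged from 2018 to 2600 over all libraries and was not called. Fzd4 fell by 0.65 in Stag1-/- cells, from 139, 136 and 111 to 70.9, 99.3 and 75.9 normalized counts (SE 0.23, edgeR adjusted p = 0.0645; up to 0.209 without replicate 1 or 3 of Stag1-/- siGLO or replicate 1 or 2 of WT siGLO).

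Porcn, on which secretion of all WNT ligands depends, fell in Stag1-/- cells and in Stag2-/- cells treated with siStag1. It had 595, 504 and 491 normalized counts in WT siGLO, 479, 450 and 510 in WT siStag1 and 312, 275 and 380 in Stag1-/- libraries. The Stag2-/- libraries had 502, 608 and 353 with siGLO and 205, 270 and 229 with siStag1. The Stag2-/- siGLO libraries overlapped with the wild type, and the Stag1-/- and Stag2-/- siStag1 libraries lay below it. The fall was 0.72 in Stag1-/- cells (SE 0.17, edgeR adjusted p = 0.0112), 1.18 in Stag2-/- siStag1 cells against WT siGLO (SE 0.18, edgeR adjusted p = 9.6e-05), and 1.05 against Stag2-/- siGLO (log2 difference -1.05, SE 0.18, edgeR adjusted p = 0.00263). Porcn was lower in Stag1-/- than in Stag2-/- cells with overlapping libraries (log2 difference -0.59, edgeR adjusted p = 0.0268; up to 0.145 without replicate 2 of either knockout).

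The feedback genes did not move as a block. Of 7 tested, 1 was called in Stag1-/- cells (lower), 4 in Stag2-/- cells (3 higher, 1 lower) and 2 in Stag2-/- siStag1 cells (1 higher, 1 lower), beside 20.0%, 28.3% and 43.9% of all genes. Axin2, the most widely used reporter of β-catenin activity, had 391, 339 and 358 normalized counts in WT siGLO, 387, 275 and 264 in Stag1-/-, 445, 647 and 423 in Stag2-/- siGLO and 376, 364 and 401 in Stag2-/- siStag1 libraries. It rose by 0.48 in Stag2-/- cells (SE 0.17, edgeR adjusted p = 0.0539), a call that was lost without WT siGLO replicate 2 or 3 or without Stag2-/- siGLO replicate 2 (for the latter, log2 fold change 0.26 and edgeR adjusted p = 0.292). Stag1-/- cells lay below Stag2-/- cells (log2 difference -0.71, SE 0.17, edgeR adjusted p = 0.00814). In Stag2-/- siStag1 cells, where Lef1 was highest, Axin2 overlapped with the wild type, with a difference of 0.07 (SE 0.17).

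Sp5, a zinc-finger transcription factor and direct β-catenin target, had 24.3, 20.3 and 22.3 normalized counts in WT siGLO, 41.3, 49.6 and 44.3 in Stag1-/-, 56.1, 226 and 67.6 in Stag2-/- siGLO and 31.5, 20.8 and 4.04 in Stag2-/- siStag1 libraries. It rose by 2.38 in Stag2-/- cells (SE 0.53, edgeR adjusted p = 0.00507), or by 1.46 without Stag2-/- siGLO replicate 2 (edgeR adjusted p = 0.0466). siStag1 lowered it again in these cells (log2 difference -2.62, SE 0.54, edgeR adjusted p = 0.0113; 0.197 when only the libraries compared were fitted), and without Stag2-/- siGLO replicate 2 this difference was -1.71 (edgeR adjusted p = 0.0695). The difference between the knockouts (-1.37, edgeR adjusted p = 0.0662) was -0.45 without that library (edgeR adjusted p = 0.538) and was also lost without any Stag1-/- library. Dkk1, a secreted antagonist that binds LRP5 and LRP6, fell in all 3 knockout conditions. Its normalized counts were 72.0, 54.9 and 79.4 in WT siGLO, 15.7, 5.84 and 4.52 in Stag1-/-, 14.8, 57.1 and 24.3 in Stag2-/- siGLO and 4.93, 8.32 and 12.1 in Stag2-/- siStag1 libraries. The fall was 2.98 in Stag1-/- (SE 0.51, edgeR adjusted p = 0.000883) and 3.01 in Stag2-/- siStag1 cells (SE 0.51, edgeR adjusted p = 0.000284). The fall of 1.10 in Stag2-/- cells had overlapping libraries (edgeR adjusted p = 0.0888). It was lost without any 1 of the libraries compared except Stag2-/- siGLO replicate 2 (up to 0.239), whose omission gave a log2 fold change of -1.81. The further fall with siStag1 (log2 difference -1.91, edgeR adjusted p = 0.0589) was lost without Stag2-/- siGLO replicate 2 (-1.20, adjusted p = 0.277) or any Stag2-/- siStag1 library. The difference between the knockouts (-1.88, edgeR adjusted p = 0.022) was lost without Stag2-/- siGLO replicate 2 (-1.17, edgeR adjusted p = 0.152). The 5 endoderm markers also fell in all 3 of these conditions, by a median of 2.42 on the log2 scale in Stag2-/- cells. Between Stag2-/- siGLO and siStag1 none of the 5 was called (median log2 difference 0.19). Their part in the Dkk1 result was not tested.

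Nkd1, an inhibitor that binds Dishevelled, rose by 1.09 in Stag2-/- siStag1 cells (SE 0.25, edgeR adjusted p = 0.0027), from 49.6, 48.8 and 81.3 to 95.6, 153 and 136 normalized counts, and by 0.75 in Stag2-/- cells with overlapping libraries (edgeR adjusted p = 0.0438; up to 0.167 without WT siGLO replicate 1 or 2 or Stag2-/- siGLO replicate 3). It lies on chromosome 8, whose tested genes had median log2 fold changes of -0.19, -0.20 and -0.22 in Stag1-/-, Stag2-/- and Stag2-/- siStag1 cells. Rnf43, a ubiquitin ligase that removes Frizzled receptors from the cell surface, had 7.41 to 46.9 normalized counts over all libraries and was 1.16 higher in Stag1-/- than in Stag2-/- cells (edgeR adjusted p = 0.0644; up to 0.203 without replicate 2 or 3 of Stag1-/- or replicate 1 or 2 of Stag2-/- siGLO). Its partner Znrf3 (345 to 537) and the deacylase Notum (140 to 506), which strips the lipid from WNT proteins, were called in no comparison without the replicate block. With it, Notum was lower in Stag2-/- siStag1 cells than in Stag2-/- siGLO (log2 difference -0.63, edgeR adjusted p = 0.0296) and WT siGLO cells (-0.42, edgeR adjusted p = 0.0552), and lower in Stag1-/- than in Stag2-/- cells (-0.51, edgeR adjusted p = 0.0335). Znrf3 was higher in Stag2-/- siStag1 than in WT siGLO cells with the block (0.27, edgeR adjusted p = 0.051). For this comparison only 2 of 3 same-numbered library pairs correlated above 0.1 (lowest 0.045), which limits the block calls of Notum and Znrf3 in it.

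The promoters of these genes were searched for CTTTGAT, the core of the site bound by TCF/LEF factors, in either direction, in RefSeq windows of 250 bases before to 50 bases after the transcript start (GRCm38.p6). Windows were found for 31 of the 46 genes. It occurred in 3 of these 31 genes (9.68%; Sp5, Wnt11 and Wnt5b), or 3 of their 41 windows (7.32%), beside 3.73% of all 32851 windows and 4.29% of all genes with a window. The 3 windows with the match are shown because their genes went different ways, and a Lef1 window because that gene rose in both Stag2-/- conditions; capitals mark the match, which began 104 bases before the start in Sp5 (chr2:70474673-70474972, plus strand), 51 bases before it and on the opposite strand in Wnt11 (chr7:98834862-98835161, plus strand), and 71 bases before it in Wnt5b (chr6:119449337-119449636, minus strand). The Lef1 window (chr3:131110047-131110346, plus strand) had no match.
Sp5: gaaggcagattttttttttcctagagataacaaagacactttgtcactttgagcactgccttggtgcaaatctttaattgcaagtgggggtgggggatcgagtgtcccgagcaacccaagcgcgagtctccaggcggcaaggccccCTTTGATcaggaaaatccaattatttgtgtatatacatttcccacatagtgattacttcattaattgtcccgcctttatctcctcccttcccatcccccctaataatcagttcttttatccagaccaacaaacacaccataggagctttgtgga
Wnt11: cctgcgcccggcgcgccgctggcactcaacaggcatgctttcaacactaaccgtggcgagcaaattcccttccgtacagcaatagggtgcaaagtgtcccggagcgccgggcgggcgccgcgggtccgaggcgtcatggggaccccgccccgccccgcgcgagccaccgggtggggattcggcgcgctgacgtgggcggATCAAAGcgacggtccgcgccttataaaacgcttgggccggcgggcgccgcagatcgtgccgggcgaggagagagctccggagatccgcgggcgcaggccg
Wnt5b: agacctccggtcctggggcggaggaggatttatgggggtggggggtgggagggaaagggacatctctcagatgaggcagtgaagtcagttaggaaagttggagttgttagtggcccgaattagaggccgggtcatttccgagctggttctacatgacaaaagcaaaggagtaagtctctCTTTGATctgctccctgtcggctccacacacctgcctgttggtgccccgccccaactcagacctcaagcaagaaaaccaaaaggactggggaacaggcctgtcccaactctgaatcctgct
Lef1: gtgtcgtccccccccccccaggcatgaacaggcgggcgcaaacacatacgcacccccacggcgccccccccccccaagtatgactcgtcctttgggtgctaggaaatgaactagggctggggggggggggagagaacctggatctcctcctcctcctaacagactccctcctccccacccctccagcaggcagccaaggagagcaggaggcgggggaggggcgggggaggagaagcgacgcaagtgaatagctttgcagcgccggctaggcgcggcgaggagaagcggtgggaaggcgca

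The effect of siStag1 was examined in both backgrounds. In wild-type cells DESeq2 called none of the 38 pathway genes given an adjusted p, beside 0.936% of all genes, and 3 had an unadjusted p under 0.05. By edgeR none of the 39 genes was called (2 had an unadjusted p under 0.05), beside 0.248% of all genes. With the replicate block 1 gene was called, beside 1.63% of all genes: Lef1, with 376, 312 and 358 normalized counts against 264, 133 and 208, rose by 0.83 (SE 0.14, edgeR adjusted p = 0.00721), while the same difference without the block was 0.78 (SE 0.27, edgeR adjusted p = 0.51). Wnt8a had 29.1, 17.5 and 7.74 normalized counts with siStag1 against 5.61, 6.10 and 3.87, a difference of 1.75 (SE 0.97, edgeR adjusted p = 0.885). In Stag2-/- cells siStag1 called 7 genes (1 higher, Lef1; 6 lower, Wnt4, Wnt8a, Fzd5, Porcn, Sp5 and Dkk1), beside 6.37% of all genes (2.98% higher, 3.39% lower), and 12 with the replicate block (5 higher, 7 lower), beside 14.1% in that fit. Without the block, 5 were called when Stag2-/- siGLO replicate 2 or Stag2-/- siStag1 replicate 2 or 3 was left out (4.62%, 3.64% and 2.83% of all genes), and 11 without Stag2-/- siStag1 replicate 1 (10.1%). Fitting only the 6 libraries compared left 2 of the 7 calls (Lef1 and Porcn), beside 1.61% of all genes. The difference of the siStag1 effect between the backgrounds was called for none of the 39 genes by edgeR (7 had an unadjusted p under 0.05), beside 0.159% of all genes. DESeq2 called it for 4, beside 0.718% of all genes: Wnt8a (log2 difference -4.24), Sp5 (-2.88), Wnt4 (-2.06) and Porcn (-0.92).

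Shares within each family were calculated from CPM per kilobase, a measure chosen after the values had been seen. An exact permutation test of 3 against 3 libraries cannot give a two-sided p under 0.1, so non-overlapping shares are given as a description. Fzd5 made up 32.3% ± 1.1 (SD, n = 3) of the Frizzled level in WT siGLO, 26.2% ± 1.7 in Stag1-/-, 22.2% ± 3.9 in Stag2-/- siGLO and 15.9% ± 1.4 in Stag2-/- siStag1 libraries, while Fzd7 was the largest share in each. Lef1 went from 3.15% ± 1.2 of the TCF/LEF level in WT siGLO to 9.17% ± 2.1 in Stag2-/- siGLO and 18.7% ± 5.8 in Stag2-/- siStag1 libraries, and stood at 1.61% ± 0.44 in Stag1-/-. Over the same groups the TCF/LEF sum went from 39, 41.4 and 46.3 to 64.7, 66.0 and 67.1 and to 83.2, 74.7 and 76.7. Among the ligands, Wnt7b supplied 23.1% ± 1.6 of the level in WT siGLO and 43.5% ± 4.3 in Stag1-/- libraries. Its share was 14.4% ± 2.2 in WT siStag1, below WT siGLO without overlap. In Stag2-/- siGLO and Stag2-/- siStag1 libraries it was 6.92% ± 5.5 and 6.64% ± 5.2. The ligand sum was 5.98, 8.61 and 7.25 in WT siGLO, 16.9, 17.7 and 12.5 in Stag1-/-, 8.16, 22.9 and 7.62 in Stag2-/- siGLO and 8.05, 7.52 and 7.32 in Stag2-/- siStag1 libraries, so that the wild type was exceeded without overlap in Stag1-/- cells and overlapped in both Stag2-/- conditions.

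**Figure D4:**
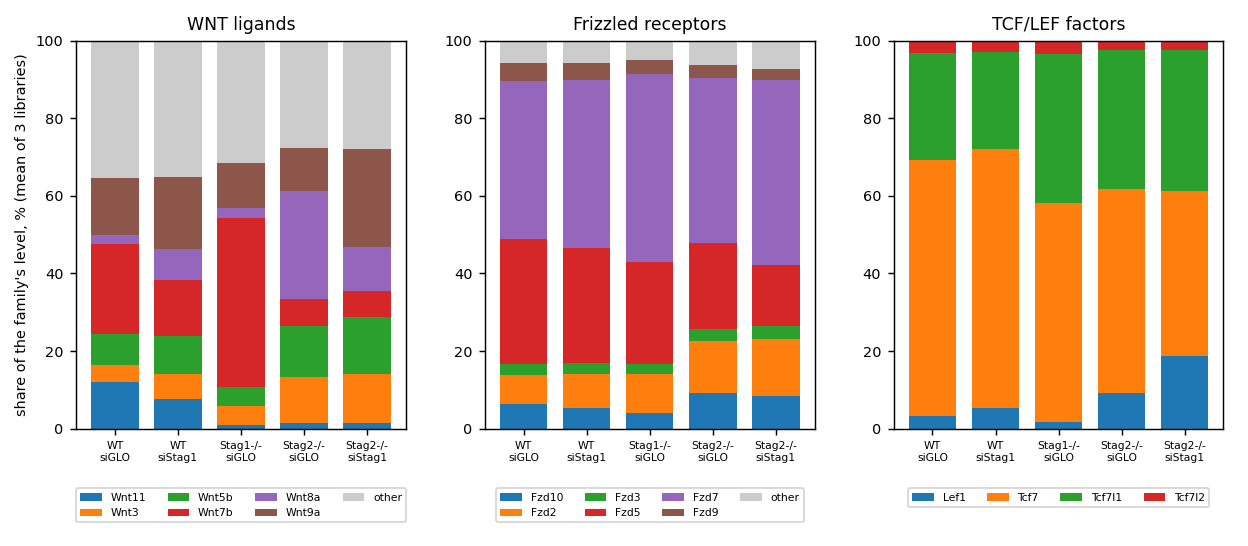
Shares (%) of each gene in the summed level of its family, in CPM per kilobase, as means of 3 libraries per condition; the 6 genes with the largest shares are coloured and the others are gray. Lef1 grows from 3.15% to 18.7% of the TCF/LEF level between WT siGLO and Stag2-/- siStag1, and Fzd5 shrinks from 32.3% to 15.9% of the Frizzled level.

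Other genes of the pathway were counted from lists, 72 of which were tested. Of these, 24 were called in Stag1-/- cells (16 higher, 8 lower), 24 in Stag2-/- cells (14 higher, 10 lower) and 38 in Stag2-/- siStag1 cells (22 higher, 16 lower), against the same backgrounds of 20.0%, 28.3% and 43.9%. Among 11 tested secreted agonists and antagonists, 5 were called in Stag1-/- cells (1 higher, 4 lower), 4 in Stag2-/- cells (1 higher, 3 lower) and 5 in Stag2-/- siStag1 cells (2 higher, 3 lower). Sfrp1, an abundant decoy that binds WNT ligands, had 3299, 3227 and 3607 normalized counts in WT siGLO, 1820, 1872 and 1821 in Stag1-/-, 963, 1359 and 2011 in Stag2-/- siGLO and 470, 1164 and 1271 in Stag2-/- siStag1 libraries. It fell by 0.88, 1.23 and 1.80 on the log2 scale (edgeR adjusted p = 0.0382, 0.00488 and 0.000111). Its relative Sfrp2 went the other way, by 1.65 in Stag2-/- (SE 0.32, edgeR adjusted p = 0.00195) and 2.23 in Stag2-/- siStag1 cells (SE 0.32, edgeR adjusted p = 6.15e-05).

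The list of other receptors and planar polarity genes had 12 of 23 tested genes called in Stag1-/- cells (11 higher, 1 lower), 9 in Stag2-/- cells (6 higher, 3 lower) and 14 in Stag2-/- siStag1 cells (9 higher, 5 lower), beside 20.0%, 28.3% and 43.9% of all genes (higher, 10.1%, 13.9% and 22.6%). Prickle1, a core planar polarity gene, had 86.0, 90.5 and 80.3 normalized counts in WT siGLO, 193, 142 and 169 in WT siStag1, 204, 137 and 136 in Stag1-/-, 455, 682 and 498 in Stag2-/- siGLO and 792, 811 and 870 in Stag2-/- siStag1 libraries, and each condition exceeded WT siGLO without overlap. It rose by 0.97 with siStag1 in wild-type cells (SE 0.19, edgeR adjusted p = 0.0623), by 0.89 in Stag1-/- (SE 0.19, edgeR adjusted p = 0.0049), by 2.67 in Stag2-/- (SE 0.19, edgeR adjusted p = 4.48e-07) and by 3.27 in Stag2-/- siStag1 cells (SE 0.19, edgeR adjusted p = 7.3e-09). The WNT5A receptors Ror1 and Ror2 diverged. Ror1 rose by 2.56 and Ror2 fell by 0.80 in Stag2-/- cells (edgeR adjusted p = 0.00051 and 0.000535). Ptk7, a pseudokinase co-receptor, rose by 0.44, 0.54 and 0.94 in Stag1-/-, Stag2-/- and Stag2-/- siStag1 cells (edgeR adjusted p = 0.00765, 0.00158 and 4.09e-06).

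Of 26 genes of the secretion machinery and destruction complex, 6 were called in Stag1-/- cells (3 higher, 3 lower), 7 in Stag2-/- cells (4 higher, 3 lower) and 13 in Stag2-/- siStag1 cells (8 higher, 5 lower). These counts are 23.1%, 26.9% and 50.0% of the list, close to the 20.0%, 28.3% and 43.9% of all genes. Csnk1e, a casein kinase that phosphorylates Dishevelled, fell by 1.08 in Stag1-/- cells (SE 0.14, edgeR adjusted p = 6.47e-05) and by 0.46 in Stag2-/- cells (SE 0.13, edgeR adjusted p = 0.0226). Wls, the carrier that takes lipidated WNT to the cell surface, rose by 1.21 in Stag2-/- (SE 0.30, edgeR adjusted p = 0.00925) and by 0.94 in Stag2-/- siStag1 cells (SE 0.30, edgeR adjusted p = 0.0216). Of 12 WNT responsive genes, 1 was called in Stag1-/- cells (higher), 4 in Stag2-/- cells (3 higher, 1 lower) and 6 in Stag2-/- siStag1 cells (3 higher, 3 lower). Sp8, a relative of Sp5, had 34.6, 32.5 and 31.0 normalized counts in WT siGLO, 115, 377 and 292 in Stag2-/- siGLO and 275, 355 and 395 in Stag2-/- siStag1 libraries. Both Stag2-/- groups lay above the wild type and overlapped with each other. It rose by 2.99 (SE 0.36, edgeR adjusted p = 3.83e-05) and 3.38 (SE 0.36, edgeR adjusted p = 3.32e-06), so that it stayed high in Stag2-/- siStag1 cells, where Sp5 did not. The streak gene T rose by 3.80 in Stag2-/- cells (SE 0.62, edgeR adjusted p = 0.000521) and by 2.02 in Stag2-/- siStag1 cells (SE 0.64, edgeR adjusted p = 0.021). Ccnd1, the cyclin that drives entry into S phase, rose by 0.72 and 0.76 in the same conditions (edgeR adjusted p = 0.00276 and 0.000757), and Ascl2 fell by 0.96 and 1.44 (edgeR adjusted p = 0.0454 and 0.00308).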

How the data were processed

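PolyA RNA-seq counts per gene, deposited by the authors as one table per library, were used for 15 libraries. Reads had been aligned with STAR to mm10 (submitters' processing notes, which also name DESeq2); the counting tool, its annotation and its strand setting are not given in the sources used here. The 4 summary lines of each table (19.8 to 23.4% of reads) were left out. Counts were filtered (filterByExpr, minimum count 10, minimum total 15), TMM-scaled and fitted with edgeR 4.0.16 (R 4.3.3; glmQLFit, glmQLFTest) over all 15 libraries with 1 coefficient per condition. Two-sided p-values were Benjamini-Hochberg adjusted over 14508 genes and called under 0.1. Values are TMM-normalized counts at the mean library size. DESeq2 1.42.0, other scalings, filters, library subsets, a replicate block and leaving out each library were alternatives. The fit was also run on simulated counts drawn without a shared effect of replicate number, so that run does not test the fit under pairing. Levels between genes used exon lengths of GENCODE M21, on which 93.0% of gene names were placed.

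The genes and lists were chosen with earlier results of these data known. Named with values in every library were mainly genes called in at least 1 of 7 comparisons with a mean of at least 10 normalized counts in a condition; of other lists, at most 4 genes each, those called most often. Within a group, library pairs differed by more than counting noise (chi-square per degree of freedom 4.7 to 26.8 in 15 pairs). Same-numbered libraries of different conditions deviated together (mean correlation 0.309 over 30 pairs and 11529 genes). Deviations were taken from the mean of the 3 libraries of a condition. The mean of -0.151 between different numbers follows largely from that and is no separate comparator. All 3 pairs exceeded 0.1 in each of 6 comparisons except Stag2-/- siStag1 against WT siGLO (lowest 0.045). The main fit held no block, and the block on the labels' numbers was an alternative in every comparison, this one included. The 3-count level covers counting error only, whereas SEs and p-values include the spread between libraries.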

Additional observations from a re-analysis of the deposited data

How the results depend on the processing

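Of 80 calls of single genes, none changed direction under any alternative run. RLE size factors and the replicate block lost none, DESeq2 and library-size scaling 1 each (Wnt3a and Tcf7l2 in Stag2-/- cells), no low-count filter 4, fitting only the libraries compared 13 of 79 (5 for siStag1 in Stag2-/- cells; Axin1 in Stag1-/-; Dkk1, Nkd1 and Tcf7l2 in Stag2-/-; Ctnnb1 and Wnt4 in Stag2-/- siStag1 against WT siGLO; Apc and Rnf43 between the knockouts), and leaving out each library in turn 32 of 80 at least once. With the replicate block the counts became 22 (Stag1-/-), 1 (wild-type siStag1) and 12 (siStag1 in Stag2-/- cells); other comparisons stayed within 1.5 times. Fitting only the libraries compared left 2 genes for siStag1 in Stag2-/- cells, and DESeq2 called 4 for the difference of siStag1 effects. Leaving out each library in turn gave 9 to 16 genes for Stag1-/- (13.0 to 18.7% of all genes), 13 to 20 for Stag2-/- (17.1 to 27.1%), 17 to 21 for Stag2-/- siStag1 against WT siGLO (35.1 to 42.3%), 5 to 11 for siStag1 in Stag2-/- cells (2.83 to 10.1%), 10 to 17 between the knockouts (17.2 to 23.9%) and 0 to 1 for the difference of siStag1 effects (0.0882 to 0.517%). The cause was not tested. A group then holds 2 libraries, and ligands of a few counts are limited by depth.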

Other observations

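Several WNT ligand genes lie side by side, and in 1 of 4 such pairs both genes were tested. Wnt3a and Wnt9a, that pair, are 16.2 kb apart on chromosome 11. Wnt3a was called in Stag1-/- and Stag2-/- cells in opposite directions, and Wnt9a in Stag2-/- siStag1 cells, so that edgeR without the replicate block called both in no comparison. DESeq2 without a block called both in Stag1-/- cells. With the block in edgeR both were called in Stag1-/- cells (edgeR adjusted p = 0.0302 for Wnt3a and 0.0104 for Wnt9a) and between the knockouts (0.000795 and 0.0206). Wnt3 and Wnt9b are 24.3 kb apart on the same chromosome. Wnt9b had at most 10 counts in any library, while Wnt3 rose in both Stag2-/- conditions. Wnt6 (8.32 to 38.6 normalized counts over all libraries, no call) lies 6.19 kb from Wnt10a, and Wnt1 and Wnt10b, 11.7 kb apart on chromosome 15, had at most 1 and 7 counts.

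Around Lef1 (chr3:131110471-131224356, GRCm38), the log2 fold changes of the 20 other tested genes within 2 Mb centred on a median of 0.00 in Stag2-/- and -0.16 in Stag2-/- siStag1 cells, against 2.19 and 3.49 for Lef1. The 25 such genes around Wnt7a had a median of -0.05 in Stag1-/- cells and the 29 around Wnt7b a median of 0.01, against 2.70 and 2.04 for these ligands. The 47 around Wnt11 had medians of -0.07, -0.01 and -0.02 in Stag1-/-, Stag2-/- and Stag2-/- siStag1 cells.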
